A study of Arabidopsis thaliana with 4 samples.

Results

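The tiles described here are 3836 neighbouring features of a tiling array, held on the 40 plates numbered TA60 to TA99, out of 21716 scored tiles in all. A tile is a stretch of Arabidopsis DNA printed as 1 array feature, and its identifier gives its set (TA), plate (60), row (A to H) and column (01 to 12). All 40 plates have 96 wells, which makes 3840 tiles. The 4 without a score are TA67A10, TA88A04, TA88A10 and TA99A07. The plates were chosen from the scores themselves, as the stretch between a series of low plates and the start of set TB. The levels given below are therefore a description, and the limma calls counted among them, made on the same scores, lend them no support.

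The chromatin came from whole seedlings of Arabidopsis thaliana, ecotype col-0, that were 10 days old by their labels and received no treatment. Per the labels' protocols they grew in half-strength liquid MS medium at 22 °C under a long photoperiod. The immunoprecipitate was obtained with an H3K9me3 antibody from the vendor Upstate and was set against input chromatin of the same preparation, I or II. Each of these 2 preparations was hybridised to a dye-swap pair of arrays, so that 4 arrays form a single group with no mutant, stress or other mark beside it. Whole seedlings mix many cell types, so a tile's score is an average over them, and whether separate cultures gave the preparations is not stated in the labels.

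H3K9me3 is histone H3 carrying 3 methyl groups on lysine 9. Methylated lysine 9 is read by proteins with a chromodomain, and in animals the trimethylated form is a hallmark of condensed, silent chromatin. Plants divide the work differently. In Arabidopsis it is dimethylated lysine 9 that accompanies DNA methylation over transposons, while trimethylated lysine 9 has been mapped mostly to genes in open chromatin. From what is known of the study, and not from the files, the array tiles chromosome 4. No tile identifier of these plates matched an entry of a TAIR10.1 gene table (0 of 3840), so no tile has a gene name, a position or a sequence here.

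The files hold 1 signed score per tile and array, and both arrays of a pair hold the same score at every tile. Each pair therefore counts as 1 measurement and n is 2 preparations throughout. Over these plates the deposited score had a median of -1.04 in preparation I and -1.28 in preparation II. Every score below is the deposited score minus the median of all 21716 tiles of its preparation, which was -1.09 in I and -1.35 in II. The sources used here do not say whether a higher score stands for more immunoprecipitate or for more input, nor on which log base it lies, so "high" and "low" refer to the score alone and no value is a fold change.

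The scores of plates TA60 to TA99 lay slightly above those of the rest of the array at the middle and at the 10th percentile. The median was 0.05 in plates TA60 to TA99, against -0.02 in the other 17880 tiles. The 10th percentile was -0.47 in these plates, against -0.53 in the rest. By preparation it was -0.50 against -0.51 in I and -0.48 against -0.60 in II. At the 90th percentile the order was the other way round, with 1.07 in these plates and 1.11 in the rest. At the 99th percentile these plates were again above, with 2.04, against 1.93. At the 1st percentile they did not lie above, with -0.86, against -0.85. Scores between 1 and 1.5 belonged to 6.39% of the tiles in these plates, against 7.53% in the rest, and scores of 1.5 or more to 4.74%, against 4.54%. At the 75th percentile the preparations went opposite ways, with 0.47 in these plates against 0.51 in the rest in I, and 0.50 against 0.45 in II. The middle of the distribution of mean scores lay a little higher than elsewhere, and the shoulder just above 1 was thinner.

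**Figure D1:**
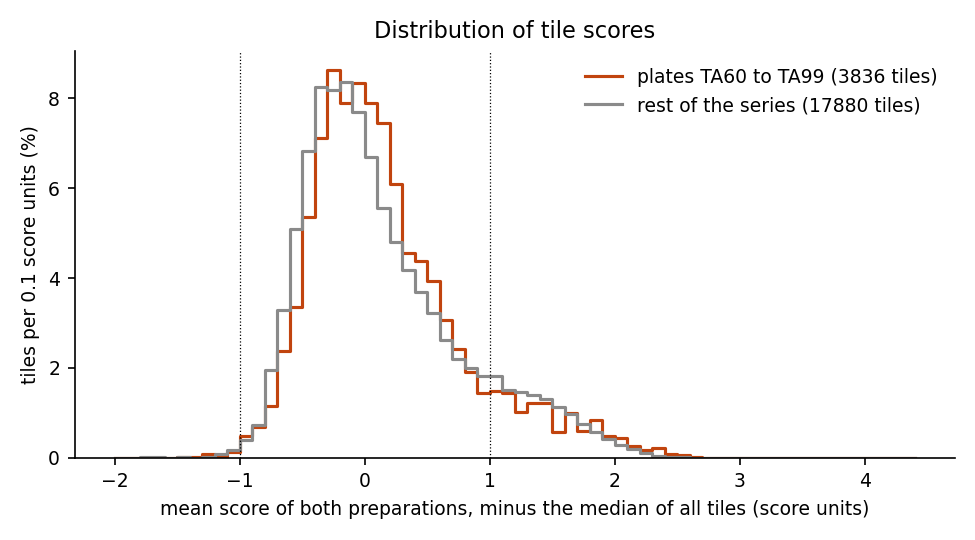
Percentage of tiles in bins of 0.1 score units, for the 3836 tiles of plates TA60 to TA99 and the 17880 tiles of the rest of the series. The x axis is the mean score of both preparations minus the median of all tiles, and the dotted lines at -1 and 1 mark the limits for low and high tiles. The middle of plates TA60 to TA99 lies to the right of the rest (medians 0.05 and -0.02), while both share a long upper tail.

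A tile was counted as high when its mean score over both preparations was at least 1. This held for 427 of the 3836 tiles, 11.1%, beside a background of 11.9% over all tiles. Preparation II alone gave 372 high tiles and preparation I alone 490. Tiles with a mean score of -1 or less, called low, were rare at 11, and the background over all tiles was 0.327%. Their number was 24 in preparation I alone and 17 in preparation II alone, so the count of low tiles depends on the averaging. At the milder limit of 0.5 the plates held 917 tiles, 23.9%, against a background of 23.9%. At -0.5 or less they held 320 tiles, 8.34%, against a background of 11.2%. The share of high tiles was thus near that of the array, and moderately low tiles made up a smaller share than over all tiles. That difference lay mostly in preparation II, with 9.33% in these plates against 14.6% over all tiles. In preparation I the shares at -0.5 or less were close, 9.96% against 10.6%.

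By limma, which asked of every tile on the array whether its mean score differed from the median, 1245 tiles of these plates were called higher and 768 lower (Benjamini-Hochberg adjusted p under 0.05 over 21716 tiles). The higher calls made up 32.5% of the tiles, beside 31.6% over all tiles. The lower calls made up 20.02%, beside 25% over all tiles. All tiles shared 1 estimate of the spread, 0.20 score units per preparation (SD), so a tile was called once its mean lay at least 0.31 from the median. Of the calls 61.8% were higher, beside 55.8% of the calls over all tiles, and this split rests on where the zero is put. With the zero moved to the mode, the peak of each preparation's distribution, 1505 tiles were higher and 328 lower (82.1% higher), and without centring 139 were higher and 3266 lower (4.08% higher). Over all tiles the share of higher calls was 76.4% with the zero at the mode and 3.51% without centring.

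Plates TA60 to TA99 lay slightly below the blocks most like them in median and in high tiles. The median was 0.05 in plates TA60 to TA99, 0.10 in plates TA01 to TA19 (1820 tiles) and 0.08 in plates TB00 to TB49 (4786 tiles). High tiles made up 11.1% in TA60 to TA99, 13.5% in TA01 to TA19 and 13.4% in TB00 to TB49. Tiles at -0.5 or less made up 8.34% in TA60 to TA99, 8.13% in TA01 to TA19 and 4.93% in TB00 to TB49, so a share below that of all tiles was not particular to TA60 to TA99. In plates TA37 to TA51 (1352 tiles), a stretch of low plates, the median was -0.44 and 0.888% of tiles were high. These blocks were all set out from the same scores, so their differences were not tested.

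The extreme upper tail was well filled. Plates TA60 to TA99 hold 17.7% of all scored tiles, and 31 of the 100 highest tiles of the array lay in them. Of the 217 tiles in the top 1%, 55 were among them. The highest tile of the plates, TA89H06, was the fourth highest of the array, at 2.61 in preparation I and 2.63 in preparation II. Elsewhere on the array the highest mean score was 4.35. At the lower end 20 of the 100 lowest tiles of the array lay in these plates.

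Plate medians moved up and down along the stretch without a trend. They ran from -0.37 to 0.50, with an SD of 0.206 over the 40 plates, against 0.275 over the 191 other plates. A median above 0 was found on 23 plates and one below 0 on 17. Plate number and plate median were unrelated in rank (Spearman's rho 0.06 across plates). Differences between plates made up 8.74% of the variance in the stretch, against 19.1% on the whole array. The other plates include stretches of low plates, such as TA37 to TA51, that were set apart by these same scores. The smaller SD and variance between plates here thus follow in part from that choice. The share of high tiles was 9.91% in plates TA60 to TA69, 11.8% in TA70 to TA79, 12.6% in TA80 to TA89 and 10.2% in TA90 to TA99.

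Ranked by the median of the mean score, the highest plates were TA81 at 0.50, TA94 at 0.43 and TA74 at 0.33. Plate TA81 had a median of 0.48 in preparation I and 0.41 in preparation II, and TA94 had 0.37 and 0.47 in the same order. Plate TA74 had 0.26 in I and 0.30 in II. Taken one preparation at a time, plates TA91 (0.32 in I and 0.42 in II), TA64 (0.32 and 0.38) and TA60 (0.26 and 0.44), picked out after their values had been seen, lay above TA74 in both, so its place rests on the averaging. These 3 plates differed in how their high tiles were spread. TA81 held 33 high tiles, the most of any plate in the stretch, while TA94 held 20 and TA74 only 10, the median count of the 40 plates. A high plate median and many high tiles thus went together only loosely (Spearman's rho 0.42 across the 40 plates).

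The lowest medians belonged to TA95, TA63 and TA65. TA95 had -0.36 in preparation I and -0.32 in preparation II, and TA63 had -0.34 in I and -0.36 in II. TA65 had -0.31 in I and -0.14 in II, so that TA95 and TA63 were the only 2 of the 40 plates below -0.2 in both preparations, against 45 of the 191 other plates. The other plates include the stretches of low plates set apart by these scores, so this contrast follows in part from how the plates were chosen. A low median did not mean an empty plate. TA65 held 12 high tiles and 3 of the 11 low ones, and its mean scores spanned -1.25 to 2.08. TA95 held 6 high tiles. TA63 had none, and its highest tile reached 0.478.

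**Figure D2:**
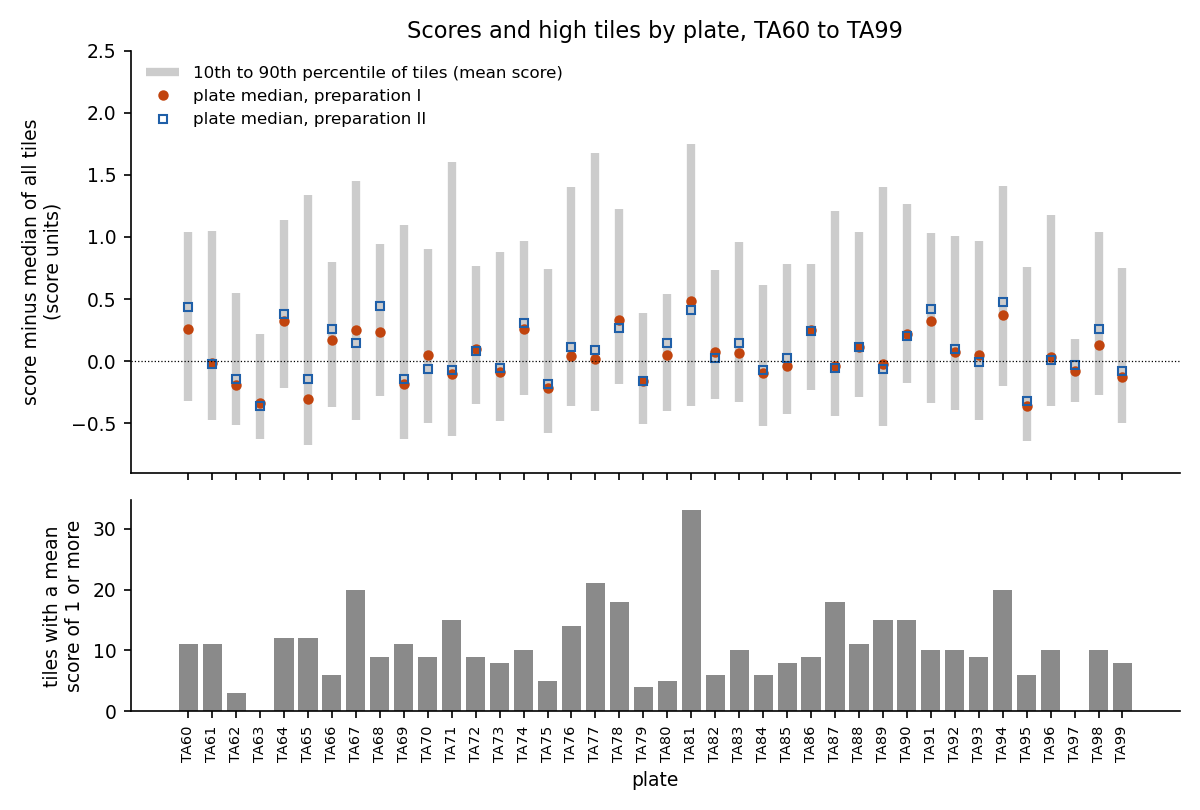
Plates TA60 to TA99 in order along the x axis. Upper panel, in score units after subtraction of the median of all tiles: plate medians in preparation I (filled circles) and preparation II (open squares), with grey bars for the 10th to 90th percentile of the mean score over the tiles of a plate; lower panel, the number of tiles with a mean score of 1 or more. The medians of the preparations lie close together on each plate, TA81 stands out with 33 high tiles, and TA63 and TA97 have none.

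Plates with an even number tended to have higher medians than the odd plates beside them. Plates were paired from TA60 with TA61 up to TA98 with TA99, which gives 20 pairs. The even number had the higher median in 16 pairs, and even minus odd averaged 0.20 ± 0.28 (SD across pairs). It averaged 0.183 in I and 0.203 in II when each was taken alone. When each odd plate was paired with the even plate after it, the even plate was higher in 15 of 19 pairs. This pairing uses the same plate medians again, so it is not a separate check. The contrast was found at the lower end of the scores and turned at the upper end. The 10th percentile was -0.35 on even plates and -0.53 on odd plates, while the 90th percentile was 1.03 on even plates and 1.12 on odd plates. High tiles numbered 203 on even and 224 on odd plates. The same contrast was 0.10 ± 0.21 over 50 pairs in set TB (SD across pairs), with the even plate higher in 36. In plates TA02 to TA59 it was 0.0006 ± 0.22 over 29 pairs, with the even plate higher in 17. In set TC it was -0.04 ± 0.24 over 11 pairs, with the even plate higher in 4. Even and odd numbers were compared after an alternation had been seen in these scores, and the part of plate handling in it was not tested.

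The edges of the stretch differed from each other. At its lower edge the first plate inside, TA60, had a median of 0.32 and 11 high tiles, against a median of -0.35 and 1 high tile on TA59, the last plate outside. The first tile inside, TA60A01, stood at 1.62 in preparation I and 0.99 in preparation II, and the last tile outside, TA59H12, at 0.52 in I and 0.50 in II. The scores thus climbed over the last wells of TA59 into the first of TA60. At the upper edge TA99 had a median of -0.08 and 8 high tiles, and TB00, the first plate of set TB, had 0.14 and 13 high tiles. Tile TA99H12 stood at -0.37 in I and -0.41 in II, and TB00A01 at -0.07 in I and 0.25 in II. No step in level marked this edge, where the set letter changes.

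High tiles stood in short groups. The 427 high tiles formed 210 runs of consecutive tiles with a mean length of 2.03. Single tiles made up 92 of the runs, 62 runs held 2 tiles, 35 held 3 and 21 held 4 or more. Of the high tiles 49.4% lay in runs of at least 3, the same share as in the rest of the series (49.4%). No run in these plates was longer than 8 tiles, while the longest elsewhere had 20. When a single tile under 1 between 2 high tiles was bridged, the longest run became 17 tiles.

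One of the 2 longest runs, of 8 tiles, lay at the start of plate TA96, from TA96A02 to TA96A09. Preparation I averaged 2.11 ± 0.23 over the 8 tiles and preparation II 1.71 ± 0.25 (SD across tiles). It began within 1 tile: TA96A01 stood at 0.15 in I and 0.16 in II, and TA96A02 at 2.39 in I and 1.95 in II. On the other side it ended more slowly, with TA96A09 at 1.69 in I and 1.27 in II, and TA96A10 at 0.73 in I and 1.13 in II. The run thus had a sharp side and a sloping side in both preparations.

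Another run of 8 tiles, TA78C07 to TA78D02, averaged 1.46 ± 0.37 in I and 1.51 ± 0.33 in II (SD across tiles). It was the one of the 4 longest runs in which II was not the lower preparation. All 8 tiles were at 1 or more in both preparations, and TA78D04, 1 tile further on than the first tile under 1, was high again at 1.49 in I and 1.03 in II. The run of 7 tiles from TA81D12 to TA81E06 averaged 1.57 ± 0.45 in I and 1.42 ± 0.25 in II. Tiles below the median lay on both sides of this run. TA81D10 was at -0.33 in I and -0.54 in II, and TA81E11 at -0.76 in I and -0.62 in II. Beyond them the scores were up again, with TA81D07 at 1.10 in I and 1.18 in II, and TA81E12 at 1.24 in I and 0.70 in II.

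The run from TA89H03 to TA89H08 held the highest tile of the plates. Preparation I averaged 2.19 ± 0.28 over the 6 tiles and preparation II 2.02 ± 0.34 (SD across tiles), the highest averages of the 4 runs in I and in II alike. Its peak, TA89H06, was flanked by TA89H05 at 2.31 in I and 2.13 in II and by TA89H07 at 1.87 in I and 2.04 in II. The end was abrupt: TA89H08 stood at 1.90 in I and 1.78 in II, and TA89H09 at 0.34 in I and -0.27 in II. The other 3 runs of 6 tiles had lower averages, up to 1.65 in the run from TA76D06 to TA76D11.

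**Figure D3:**
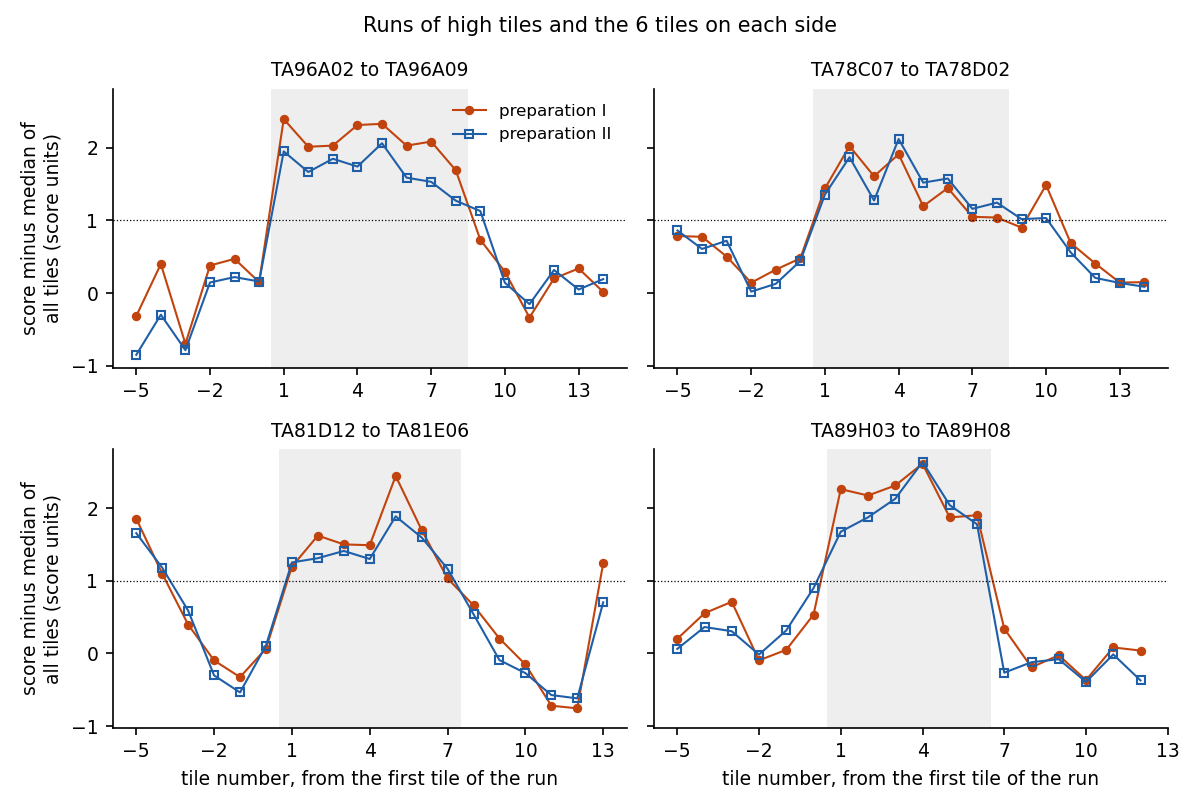
Scores in preparation I (filled circles) and preparation II (open squares) for the 4 longest runs of high tiles, shaded, with the 6 tiles on each side. The x axis counts tiles from the first tile of the run, the y axis is in score units after subtraction of the median of all tiles, and the dotted line marks 1. Both preparations trace the same outline, with a steep start at TA96A02 and a steep end after TA89H08.

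The longest run of high tiles, with single tiles bridged, lay at the end of plate TA81. From TA81G11 to TA82A03, 15 of 17 tiles were high, with a mean score of 1.53. Tile TA81H05 at 0.44 in preparation I and 0.15 in preparation II, and tile TA81H11 at 0.65 in I and 0.79 in II, were the 2 exceptions. Between them the scores climbed from tile to tile, from TA81H06 at 1.33 in I and 0.83 in II to TA81H10 at 2.42 in I and 2.19 in II. After TA81H11 they jumped to TA81H12, the second-highest tile of the plates, at 2.76 in I and 2.43 in II. The stretch crossed into the next plate, where TA82A01 stood at 1.85 in I and 2.00 in II. This stretch was picked out after its values had been seen.

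The other tiles among the 8 highest lay mostly inside groups. TA67A03 stood at 2.69 in preparation I and 2.37 in preparation II, in a run of 4 tiles at the start of its plate. On the same plate TA67E12 stood at 2.85 in I and 2.13 in II, and the tile before it also reached 2.43 and 2.02. TA71C03 stood at 2.64 in I and 2.16 in II, and the lowest of its neighbours' 4 scores was 1.65. All 3 were thus summits of wider elevations. TA70C07 stood at 2.68 in I and 2.06 in II, and TA64H05 at 2.54 in I and 2.18 in II. TA68E07 was the exception. It stood at 2.597 in I and 2.39 in II, while the tile before it, TA68E06, was at -0.03 in I and -0.20 in II and the tile after it at 0.79 in I and 1.13 in II.

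Single high tiles were rarely isolated. Of the 92, only 18 had both neighbours under 0.5 and 3 had both under 0. Their median mean score was 1.26, against 1.54 for the 211 tiles in runs of 3 or more. They were at 1 or more in both preparations in 63 of 92 cases (68.5%), and tiles of the longer runs in 186 of 211 (88.2%). The spread of the difference between preparations was 0.32 in single tiles and 0.27 in tiles of longer runs (SD across tiles). Single tiles lie nearer to the limit of 1, which by itself lowers the share that passes it in both preparations.

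Scores dropped within 3 tiles of a high tile and then stayed level. Tiles next to a high tile had a median of 0.53 (398 tiles, all under 1 by definition). At a distance of 2 tiles the median was 0.08 and at 3 tiles it was -0.08. Beyond that it lay between -0.12 and -0.03 in each range of distance examined, out to the 219 tiles at 33 or more tiles from any high tile. No trough deeper than the general level was seen around high tiles. The share of tiles at -0.5 or less was 9.51% at a distance of 3, 11.3% at 4 and 11.0% at 33 or more.

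Neighbouring tiles had like scores over the same short range. The correlation of a tile with the next was r = 0.64 across 3831 pairs (Spearman's rho 0.60). It was 0.37 at a distance of 2 tiles, 0.21 at 3, 0.10 at 6, 0.05 at 12 and -0.004 at 96, which is the same well of the next plate. Adjacent tiles gave 0.64 in plates TA60 to TA99, 0.66 in TA01 to TA19, 0.53 in TA37 to TA51 and 0.63 in TB00 to TB49. The pairs of tiles share arrays and preparations, and no p is given for these correlations.

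The likeness crossed from plate to plate. Across the 39 boundaries inside the stretch, the last well of a plate and the first well of the next had r = 0.81 (Spearman's rho 0.71). The first well of the plate after next gave r = -0.11 over 38 pairs (rho 0.02). The last well of a row and the first well of the next row gave 0.64 over 280 pairs. Reading the wells down the columns instead of along the rows left r = 0.05. A tile in preparation I and the next tile in preparation II were related with r = 0.59, and in the other direction with r = 0.60. Row-wise identifiers thus gave an order in which scores changed gradually across rows and plates alike.

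**Figure D4:**
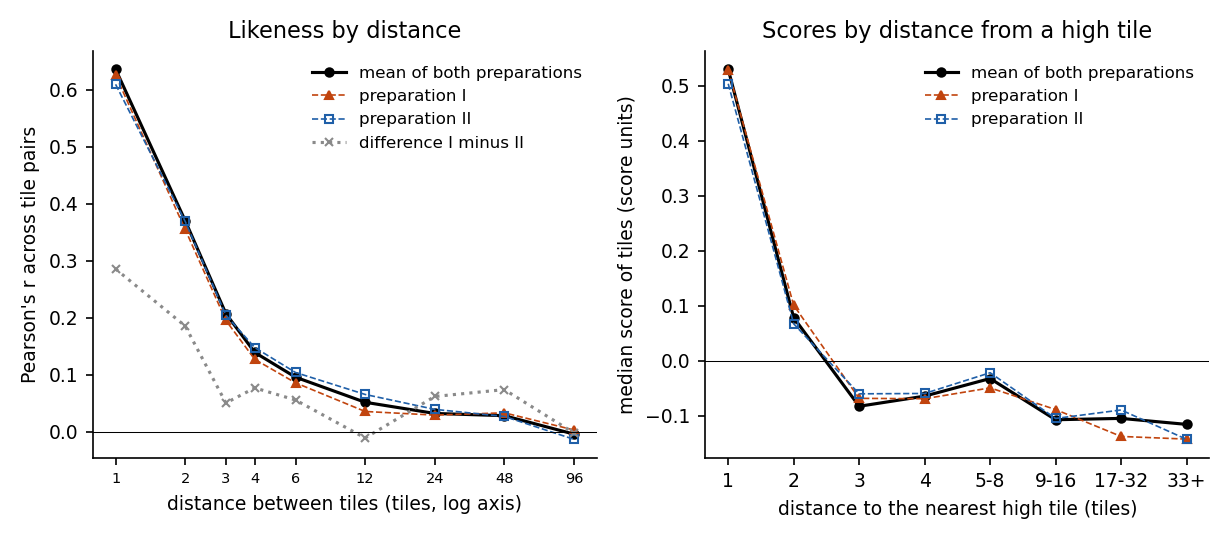
Left, Pearson's r across pairs of tiles of plates TA60 to TA99 against their distance in tiles (log axis), for the mean score, each preparation and the difference between preparations. Right, the median score of tiles under 1 against the distance in tiles to the nearest high tile, in score units. The correlation is 0.64 for adjacent tiles and 0.05 at 12 tiles, and the median is 0.53 beside a high tile and -0.08 at 3 tiles.

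Some borders were abrupt. The step between adjacent tiles had a median size of 0.28 in the mean score, and 60 of 3831 steps (1.57%) were at least 1.5. They were evenly divided, 30 upwards and 30 downwards, and 32 of all steps were at least 1.5 in the same direction in both preparations. At the largest, TA65C07 was at -0.997 in preparation I and -0.65 in preparation II, and TA65C08 at 2.21 in I and 1.77 in II. TA65C08 opened a run of 5 high tiles, and TA65C07 closed a run of 6 tiles at -0.5 or less. The largest downward step came between TA68F03, at 1.89 in I and 1.99 in II, and TA68F04, at -0.86 in I and -0.63 in II. These borders were chosen for their size after the values were seen.

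Low tiles rarely touched another tile past the same limit. The 11 low tiles formed 10 runs, of which TA65H06 to TA65H07 was the only one with 2 tiles. Some of them lay among other tiles below the median: the mean score was -0.997 just before TA79E03, -0.71 just before TA71H10, -0.70 before and -0.50 after TA77A12, and -0.56 before and -0.84 after TA65C05. The lowest tile, TA84F04, was at -1.31 in preparation I and -1.51 in preparation II, while its neighbours were at 0.10 and 0.21 before it and at -0.30 and -0.31 after it, in the same order. TA94B04 stood at -1.29 in I and -1.33 in II, and TA77A12 at -1.28 in I and -1.27 in II. At TA94B04 and TA77A12 the preparations thus gave nearly the same value. TA65H06 stood at -1.35 in I and -1.15 in II, TA65H07 at -1.34 and -0.99, and TA71H10 at -1.29 and -1.14 in the same order. The lowest 8 were completed by TA88E02, at -1.05 in I and -1.08 in II, and TA93H01, at -1.07 in I and -1.06 in II.

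Low tiles did not lie near high ones more often than other tiles. Of the 11, 3 lay within 4 tiles of a high tile (27.3%), and so did 88 of the 320 tiles at -0.5 or less (27.5%). The share was 33.4% for tiles between -0.5 and 0.5, and 37.3% (1272) for the 3409 tiles under 1. Because neighbouring tiles had like scores, these shares cannot show whether low tiles keep away from high ones. At the milder limit of -0.5 the 320 tiles formed 209 runs with a mean length of 1.53, and the longest had 8 tiles. One of these went from TA69E09 to TA69F04 and averaged -0.88 ± 0.13 in I and -0.54 ± 0.21 in II (SD across tiles). The other went from TA95B10 to TA95C05 and averaged -0.66 ± 0.10 in I and -0.63 ± 0.15 in II. The first of these runs differed between the preparations by more than the spread of its tiles, and the second did not.

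Stretches without any high tile were mostly short, but the longest reached well beyond a plate. The 427 high tiles left 213 such gaps, where an unscored tile also ended a gap. Their median length was 9 tiles, and 11 of them were 50 tiles or longer. The longest covered 159 tiles, from TA96E12 to TA98C02, and took in all of plate TA97. It was level rather than low: its median was -0.03 and its SD 0.30, and 7 of its tiles reached 0.5. On TA97 the mean scores ran only from -0.55, at TA97E11, to 0.54, at TA97B01. The next longest gap, 128 tiles from TA62H02 to TA64B09, lay lower, with a median of -0.25 and an SD of 0.37, and included plate TA63. Within these gaps the preparations still correlated, with r = 0.72 in the longest and 0.78 in the second.

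The preparations agreed closely over the stretch as a whole. Over 3836 tiles the correlation of I with II was 0.91 (Pearson's r) or 0.87 (Spearman's rho), and r was 0.85 once the highest and lowest 5% of mean scores were left out. Plate medians correlated with r = 0.94 across the 40 plates (rho 0.95). At 1 or more were 490 tiles in preparation I and 372 in preparation II, and 348 were shared, which is 71.0% of the list from I and 93.5% of that from II. These 348 tiles were 9.07% of the stretch, beside a background of 9.48% over all tiles. Tiles at -1 or less numbered 24 in I and 17 in II with 7 shared, 29.2% and 41.2% of these lists. They made up 0.626% of the stretch in I and 0.443% in II, against 0.41% in I and 0.626% in II over all tiles, where preparation II held more of them. The overlap at -1 or less was not counted over all tiles, so the 7 shared tiles cannot be called particular to the stretch.

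The difference between preparations depended on the level. Preparation I minus II averaged 0.02 over all tiles of the stretch (SD 0.28 across tiles), against 0.08 in the rest of the series (SD 0.27). In the 427 high tiles it averaged 0.29 (SD 0.28), with 1.65 in I and 1.36 in II. In tiles between 0 and 0.5 it was -0.03 and in tiles under -0.5 it was -0.02. The preparations differed by more than 0.5 at 289 tiles of the stretch, 7.53%, beside 7.20% over the whole series. Preparation I was the higher in 214 of the 289, and in 1260 of the 1563 such tiles of the whole series. The lean to I was thus not particular to the stretch. The difference was itself alike in neighbouring tiles, with r = 0.29 for adjacent tiles and 0.19 at a distance of 2. With 1 measurement per preparation, no difference at a single tile could be tested.

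The largest difference stood far from all others. Tile TA84A07 was at 2.83 in I and 0.62 in II, so that the scores differed by 2.22. Its neighbours were at -0.25 and 0.03 before it and at -0.004 and 0.60 after it, in the same order. In preparation I it was a spike between its neighbours, and in preparation II it was close to the tile after it. The tile after next, TA84A09, opened a run of high tiles, at 1.59 in I and 1.29 in II. By size of difference TA63D07 came next, at 0.92 in I and -0.30 in II, then TA79C12 at 0.44 in I and -0.67 in II. Next to TA63D07, tile TA63D06 also differed, at 0.64 in I and -0.14 in II. In the other direction TA91G10 was at -0.41 in I and 0.62 in II, TA83G05 at -0.64 in I and 0.36 in II, and TA79G10 at -0.73 in I and 0.17 in II.

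**Figure D5:**
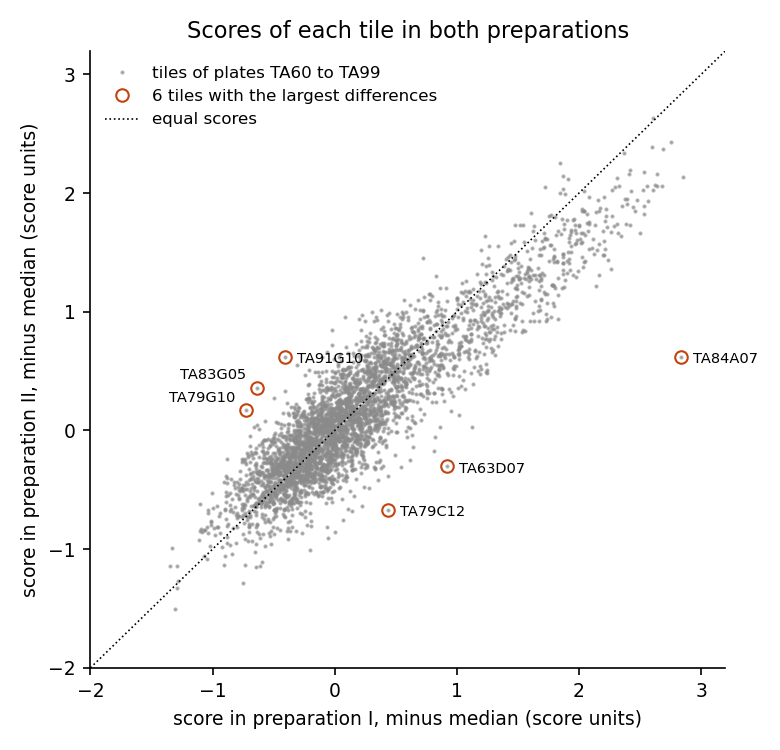
Each point is a tile of plates TA60 to TA99, with its score in preparation I on the x axis and in preparation II on the y axis, both in score units after subtraction of the median of all tiles. The dotted line marks equal scores, and the open circles mark the 6 tiles with the largest differences between preparations. The cloud bends below the line at high scores, where I averaged 1.65 and II 1.36, and TA84A07 lies far to its right.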

How the data were processed

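Both arrays of a dye-swap pair hold identical deposited scores (0 tiles differ in either preparation), so the authors had combined each pair before deposit. No label or header used here describes how the authors made the score, with its background correction, normalization, log base, centring and direction. Spot brightness was not used here. The number of preparations limits the precision, and the spread is that between these 2 preparations, which may be technical.

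The pairs were averaged to 1 score per preparation, each preparation was centred on its median over the 21716 scored tiles of 5 sets, and the mean of both was taken. limma 3.58.1 in R 4.3.3 (lmFit, eBayes, two-sided) was fitted on all tiles and its calls, Benjamini-Hochberg adjusted p under 0.05, were counted in the plates. Other values were computed with numpy 2.4.6, pandas 2.3.3 and scipy 1.17.1. limma and the run and neighbour computations were checked on simulated data. Runs hold consecutive identifiers by plate, row and column; an unscored tile ends a run. The mode was the peak of a kernel density on a grid of 0.01.

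The plates, lists and tests were chosen with earlier results of these scores known. Tiles were named by rule: the 8 highest and 8 lowest called with the same sign in both preparations, the ends of the 4 longest runs (ties by the higher mean) and of the longest low run, the 3 largest differences each way, the 3 highest and lowest plates, and the edges. Others were chosen after their values were seen.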

Additional observations from a re-analysis of the deposited data

How the results depend on the processing

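With the alternatives tried for plates TA60 to TA99, the 427 high tiles became 917 at a minimum size of 0.5, and the same count was 11 with all signs turned, which only exchanges it with the low one (then 427). Leaving out 1 preparation gave 372 to 490 high and 17 to 24 low tiles. The 11 low tiles became 6 with each preparation's mode taken as zero (the mode lay below the median, by 0.18 in I and by 0.11 in II), 320 at 0.5, and 20 with the zero at the median of these plates. The turned signs and the zero at these plates' own median were chosen after seeing the data. The limma counts, 1245 higher and 768 lower, became 139 and 3266 without centring and 531 and 42 with a minimum difference of 0.5 (treat); with the mode as the zero the lower count became 328. The median of 0.05 became 0.20 with the mode as the zero, and 0.048 to 0.069 with 1 preparation left out. The correlation of neighbouring tiles, 0.64, became 0.047 in column order, 0.60 with plate means subtracted and 0.61 to 0.63 with 1 preparation left out. The agreement of preparations, 0.91, became 0.85 once the highest and lowest 5% of tiles were left out. The 210 runs became 352 at 0.5, and the longest run, 8 tiles, became 17 with 1 tile bridged. The 32 values of the 16 highest and lowest named tiles with 1 preparation left out kept their sign. The naming rule asked for the same sign in both preparations, so this outcome was fixed in advance and is no check. A single preparation leaves limma no residual degree of freedom, so the limma counts have no such alternative. No paired analysis was possible because the series has 1 group. The cause of these changes was not tested.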

Other observations

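Well position moved little with the score in plates TA60 to TA99. The medians of the 12 columns lay between -0.01 and 0.09, and those of the 8 rows between -0.06, in row G, and 0.11, in row D.

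The 39 features without a plate and well, and the 4 unscored tiles of these plates, hold no value on any of the 4 arrays.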
